A study of Mus musculus with 48 samples.

Results

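Open chromatin was compared between the Ttad and the Tprog state of tumour-infiltrating CD8 T cells that carried a guide RNA against Dusp5, in aged mice. The comparison rests on 4 of the 48 libraries of the series, 2 for each state, taken by their labels and by no measured value, and covers all 53868 peaks of the deposited table. The cells were CD45.1 OT-1 CD8 T cells, whose T cell receptor recognizes an ovalbumin peptide, and they expressed Cas9. Before transfer they received 1 guide each by a lentiviral vector with an ametrine reporter. They were moved into young or aged mice a day before B16-OVA inoculation (a mouse melanoma line made to express ovalbumin) and sorted from the tumours 15 days after it. All groups used here share that donor genotype, the Cas9, the vector and the tumour.

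Sorting used 2 surface proteins. Tprog cells, labelled progenitor exhausted, were positive for Slamf6 and negative for Tim-3. Ttad cells, labelled age-associated dysfunctional, were negative for both. The other aged Dusp5 libraries are Ttran (transitory or effector-like, positive for both) and Tterm (terminally exhausted, positive for Tim-3 alone), with 2 libraries each. For comparison, aged hosts gave Tprog and Ttad libraries, 2 of each, with a control guide that the labels call OTC and with a guide against Zfp219. Young hosts gave 2 Tprog and 3 Tterm libraries with the Dusp5 guide. Each library pools cells of several mice, between 5000 and 50000 cells per combination of guide and state. The labels do not say how many mice a pool held or whether both states came from the same mice, so the spread between 2 libraries may be partly technical. Host age is given as aged or young only. The share of edited Dusp5 alleles was not analysed here, so the guide is a label and not a measured loss of the gene.

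T cells that meet antigen for a long time in a tumour take on a series of states. Progenitor cells keep the transcription factor TCF-1, the product of Tcf7, and self-renew. Effector-like and terminal cells lose it, gain Tim-3, and open the loci of granzymes, chemokines and interferon gamma. Dusp5 is a nuclear phosphatase that removes the activating phosphates of ERK kinases, which act downstream of the T cell receptor, and it is one of several genes that restrain this cascade. In ATAC-seq the transposase Tn5 cuts into accessible DNA, and the number of reads in a peak measures how open that site is. The values below are the deposited normalized reads per peak, that is, reads divided by a factor for each library. A peak is named after the protein-coding gene it overlaps or, failing that, the nearest one within 100 kb. This is a rule of position and does not show which gene a site acts on.

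The Tprog libraries held 11495701 and 14722397 reads in peaks, and the Ttad libraries 8887064 and 7786663, within the 5638413 to 29942755 of the series. The 2 states also differed in where reads fell. Unplaced scaffolds, stretches of the genome assembly with no known position, took 0.788% and 0.745% of reads in Tprog and 1.85% and 1.92% in Ttad. With the OTC guide the same shares were 1.27% and 1.23% in Tprog and 1.31% and 1.33% in Ttad. Markers of other cells were examined by list, against 7.33% of all peaks called in either direction. Summed signal over 11 peaks of 5 melanoma genes was 2924 and 3288 in Tprog and 2858 and 3085 in Ttad, with no peak called. Dendritic cell genes had no called peak among 15, myeloid genes 3 of 23, stromal genes 2 of 18 (both in Pecam1), CD4 and regulatory T cell genes 2 of 44 and B cell genes 1 of 9 (a peak in Pax5 that fell). In myeloid, stromal and B cell genes this is a higher share than over all peaks, from 1 to 3 peaks each. Their part in the results was not tested. Summed signal was 4271 and 4145 in Tprog and 4658 and 4427 in Ttad for myeloid genes, and 3216 and 3069 against 2932 and 3538 for stromal genes. Some genes of these lists, among them Dct, Tyr, Tyrp1, Csf1r, Adgre1, Lyz2, Cd79a, Ms4a1 and Foxp3, had no peak in the table. Other genes of the same lists did have peaks, among them Mitf, Pmel, Spi1, Itgam, Pax5 and Ebf1. The strongest peak of the T cell receptor gene Cd3e was near level, at 1008 and 977 in Tprog and 999 and 996 in Ttad. Of the 5 Cd3e peaks, 1 was called lower, with log2 differences from -5.16 to -0.88 in the fits without 1 library.

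Of the 53868 peaks, 2467 were more open in Ttad (percent called 4.58) and 1482 less open (percent called 2.75). Calls are from limma on log2(value + 1), with Benjamini-Hochberg adjusted p under 0.05 over all peaks, and every adjusted p below is of this kind unless said otherwise. The median difference over all peaks was 0.02 on the log2 scale. At least a 2-fold difference was reached by 1014 of the rises and 492 of the falls. The 4 libraries did not overlap by state at 3924 of the 3949 called peaks, against 47.0% of all peaks. Separation of the states at a called peak below is thus nearly given by the call. It is a description and not further support. The edgeR test on whole reads recovered from the deposited values called 2044 of the rises and 1342 of the falls as well. The count depends on each library: without Tprog replicate 1 it was 1781, without Tprog replicate 2 it was 2250, without Ttad replicate 1 it was 2941 and without Ttad replicate 2 it was 2208. Of 183 called peaks at the genes named below or their lists, 61 were called in all 4 fits without 1 library, 60 of these under every other setting too, 19 were called in none of the 4, and all 183 kept their sign. A call that held is one made in all 4 of these fits. For many of the others the highest adjusted p of the 4 fits is given where the peak is described. A call given with no word on these fits is not to be read as one that held. The calls at Pecam1, Pax5, Cd3e, Cdkn2c and Top2a did not hold.

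**Figure D1:**
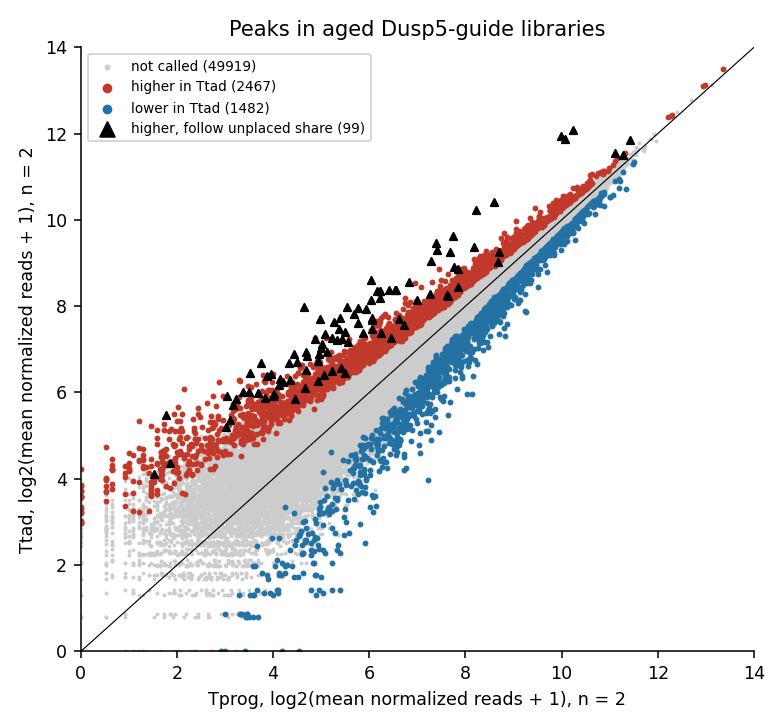
Log2(mean normalized reads + 1) of the 2 Ttad libraries (vertical axis) against that of the 2 Tprog libraries (horizontal axis) for each peak, with called peaks in colour and triangles for the 99 rises that follow the share of unplaced reads. The 2467 rises lie above the diagonal and the 1482 falls below it, and the widest departures are at peaks with few reads.

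Of the genes of the 2 sorting proteins, Slamf6 was less open in Ttad and Havcr2, which encodes Tim-3, was more open, although both states were sorted as Tim-3 negative. At the Slamf6 promoter (chr1:171917325-171918757, mm10) normalized reads were 400.3 and 377 in Tprog and 277 and 219 in Ttad. Both Ttad libraries were below both Tprog libraries, and the peak fell by 0.66 on the log2 scale (SE 0.18, adjusted p = 0.012), although without Ttad replicate 2 the adjusted p was 0.22. The strongest Slamf6 peak, upstream of it, gave 536 and 542 in Tprog and 409 and 473 in Ttad, a log2 difference of -0.29 that was not called (adjusted p = 0.26). The Havcr2 promoter peak (chr11:46452770-46455391) gave 589 and 540.2 in Tprog and 778 and 854 in Ttad. It rose by 0.53 (SE 0.08, adjusted p = 2.8e-06) and stayed called without any 1 of the 4 libraries. The states sorted as Tim-3 positive were higher again, with 1240.0 and 1209 in Ttran and 1251 and 1205 in Tterm. A second Havcr2 peak, inside the gene, rose by 0.36 (adjusted p = 0.01, and 0.22 without Tprog replicate 2).

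Sites of progenitor genes closed more often than they opened. Of 184 peaks at 15 genes of stem-like and memory T cells, 22 fell (11.96%, against 2.75% of all peaks) and 6 rose (3.26%, against 4.58%), with a median log2 difference of -0.14 against 0.02 over all peaks. Without 1 library, between 10 and 16 fell and between 3 and 5 rose. As these are bulk samples, fewer progenitor-like cells in a sort and a smaller opening per cell cannot be told apart.

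Tcf7 had 4 of its 12 peaks fall and none rise. The largest fall (chr11:52273512-52275959, inside the gene) went from 646 and 571 in Tprog to 208 and 256 in Ttad, a log2 difference of -1.39 (SE 0.20, adjusted p = 1.6e-07). The peak at its RefSeq promoter window (chr11:52281225-52284085) gave 529 and 493 against 289 and 281, a difference of -0.84 (SE 0.19, adjusted p = 0.0014). A peak 30202 bases outside the gene (chr11:52313585-52314948) gave 579 and 619 against 316.5 and 306, a difference of -0.94 (SE 0.13, adjusted p = 2.1e-07). In all of these the Ttad libraries were below the Tprog libraries, and the calls held without any 1 library. The remaining fall, of 1.07, did not (adjusted p = 0.25 without Ttad replicate 2).

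Other genes of the progenitor programme fell with it. The promoter of Id3, an inhibitor of E proteins kept on in memory cells, gave 452 and 531 in Tprog and 227 and 292 in Ttad (log2 difference -0.92, SE 0.18, adjusted p = 0.00026). A site near Ccr7, the receptor that guides T cells to lymph nodes (chr11:99170736-99171681), gave 645 and 560.3 against 234 and 236 (-1.35, SE 0.24, adjusted p = 3.7e-05). A site near Satb1, a chromatin organizer, gave 290.4 and 298.5 against 89.4 and 124 (-1.48, SE 0.32, adjusted p = 0.00083). Each separated the states completely and held without any 1 library. Klf2, a factor of quiescence and lymph node homing, fell by 0.68 at a peak next to the gene (adjusted p = 0.002), and this too held.

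The list did not move as a block. Cxcr5, the chemokine receptor of follicle-homing T cells, had 4 of its 9 peaks fall, by 0.68 to 1.84, but none was called in all 4 fits without a library. Lef1, the partner of TCF-1, had 3 peaks fall and 2 rise, and the larger rise was 0.67 (chr3:131056970-131057929; 226.5 and 343 against 403 and 488; adjusted p = 4.6e-05, and 0.13 without Tprog replicate 1). Bach2, a repressor of effector differentiation, had 3 of its 35 peaks fall and 1 rise. Its largest fall was 0.58, and no Bach2 call held in all the fits without 1 library. Myb, needed for self-renewal of progenitors, had called peaks that went against the list: 3 of its 14 rose and none fell. The median over all 14 was -0.02, and of the 3 rises only the one given next held. At chr10:21115176-21116075 reads were 112 and 82.3 in Tprog and 246 and 199 in Ttad, a rise of 1.2 (SE 0.19, adjusted p = 5.5e-06) that held without any 1 library.

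**Figure D2:**
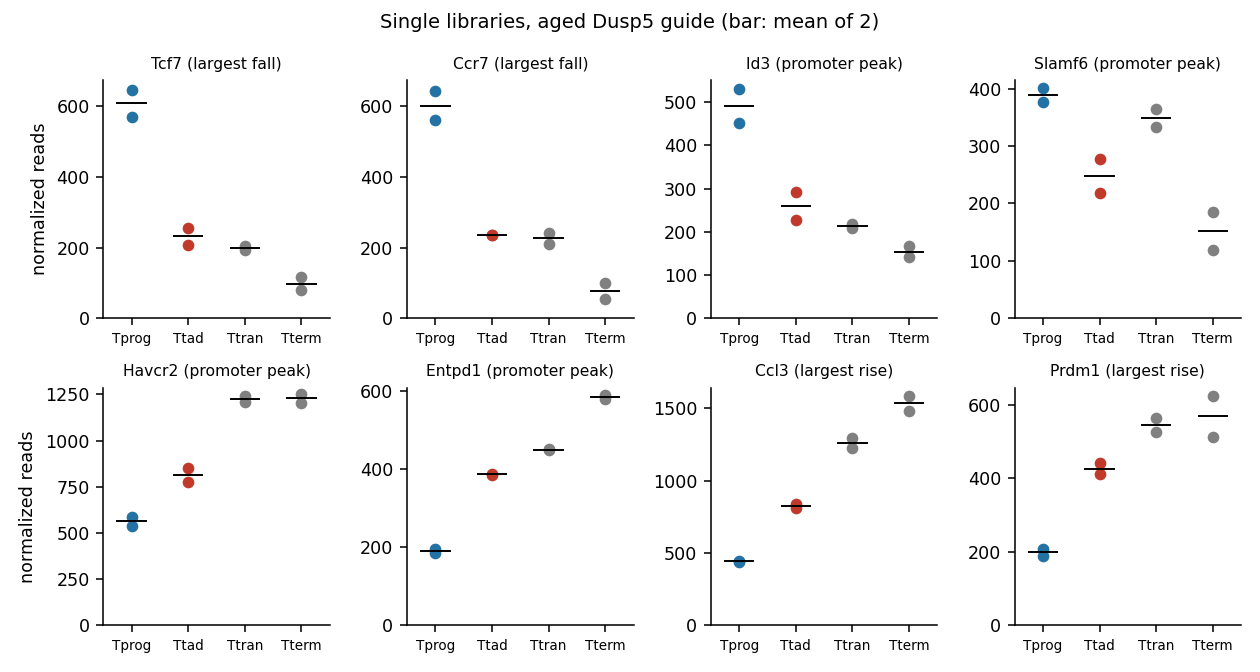
Normalized reads (vertical axis) of single libraries in the 4 aged Dusp5 states at 8 peaks, with a bar at each mean of 2 libraries. In the upper row Ttad lies below Tprog at Tcf7, Ccr7, Id3 and Slamf6, and in the lower row it lies above Tprog and below Tterm at Havcr2, Entpd1, Ccl3 and Prdm1.

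Effector genes had the largest share of rises among the lists. Of 172 peaks at 17 genes, 32 rose (18.6%, against 4.58% of all peaks) and 1 fell, with a median of 0.25. The rises touched 13 of the 17 genes. Without 1 library, between 16 and 26 rose. With the OTC guide 39 rose and 1 fell.

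The chemokine cluster on chromosome 11 opened at several sites. Ccl3, Ccl4 and Ccl5 recruit other immune cells. A peak near Ccl3 (chr11:83628444-83630271) gave 449 and 440.4 in Tprog and 813 and 841 in Ttad, a rise of 0.89 (SE 0.08, adjusted p = 2e-14). Within Ccl4 a peak rose by 0.66 (291.5 and 299 against 407 and 533; adjusted p = 3e-05), and within Ccl5 a peak rose by 0.87 (103 and 115 against 199 and 200.5; adjusted p = 0.00047). These 3 rises held without any 1 library.

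Ifng, the gene of interferon gamma, had 7 of its 27 peaks rise and none fall. The most certain lies 53587 bases from the gene (chr10:118386052-118387459) and went from 321 and 352 to 559.7 and 555, a rise of 0.73 (SE 0.13, adjusted p = 3.1e-05). Prdm1, the gene of Blimp-1 and a driver of effector and terminal fate, had 4 rises. One outside the gene (chr10:44419519-44420661) went from 209 and 190.0 to 412 and 441 (log2 difference 1.09, SE 0.14, adjusted p = 2.7e-09). Its promoter peak rose by 0.50 (435 and 432 against 631.5 and 595; adjusted p = 0.0013). The Ttad libraries were above the Tprog libraries at each, and these calls held without any 1 library.

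Zeb2, a repressor linked to terminal effector cells, rose by 0.52, and Klrg1, a receptor of short-lived effector cells, rose by 0.96 (91.9 and 65.7 against 145 and 159; adjusted p = 0.00014). Both held without any 1 library. Id2, the counterpart of Id3 in effector cells, had 3 rises of 0.39 to 0.45, none held in all 4 fits. The promoter of Cx3cr1, a fractalkine receptor of circulating effector cells, gave 254.5 and 220 in Tprog and 340 and 391 in Ttad (0.62, adjusted p = 0.015, and 0.18 without Tprog replicate 2), and both Ttad libraries lay above every other aged Dusp5 library there. The one fall of the list was at a distal Fasl peak (-0.86, adjusted p = 0.028, and 0.19 without Tprog replicate 1).

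In the granzyme cluster on chromosome 14, peaks at Gzmb, Gzmd, Gzme and Gzmf rose, and its other genes are not described here. Granzymes are the serine proteases that cytotoxic cells deliver into targets. Within Gzmb a peak went from 149 and 151.5 to 267 and 274, a rise of 0.84 (SE 0.17, adjusted p = 0.00049) that held without any 1 library. The promoters of Gzmd, Gzme and Gzmf were examined after their values had been seen. At Gzmd (chr14:56132391-56133267) reads were 0 and 3.502 in Tprog and 32.2 and 40.1 in Ttad, a fitted rise of 4.12 (SE 0.51, adjusted p = 2.7e-09) that held without any 1 library. At Gzme they were 48.2 and 28.9 against 95.2 and 95.3 (rise of 1.33, adjusted p = 0.0003, but 0.062 without Tprog replicate 2). At Gzmf they were 5.61 and 0.876 against 60.1 and 10.03 (2.88, adjusted p = 4.5e-05, but 0.085 without Ttad replicate 1). The Tprog libraries were nearly closed at Gzmd and Gzmf, so the fitted sizes depend on the pseudocount of 1. These genes are close copies of each other, and how the authors' alignment split reads among them is not known.

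Exhaustion genes had both rises and falls. Of 130 peaks at 16 genes, 11 rose (8.46%) and 7 fell (5.38%), with a median of -0.08. Without 1 library, 7 to 11 rose and 1 to 6 fell, with the fewest falls without Tprog replicate 1. Entpd1, the gene of the ectoenzyme CD39 and a marker of terminal exhaustion, accounted for 7 of the 11 rises, out of its 12 peaks, and Havcr2 and Cd244a for 2 each. Its promoter (chr19:40659633-40662398) went from 184 and 196 in Tprog to 384 and 388 in Ttad, a rise of 1.02 (SE 0.12, adjusted p = 2.1e-10). A peak inside the gene (chr19:40665839-40666251) rose by 1.85, from 22.4 and 17.5 to 73.3 and 75.2 (adjusted p = 0.00013). The states did not overlap at either, and both calls held without any 1 library.

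The 7 falls of the list were at the transcription factors Tox2, Tox and Nr4a1 and at Ctla4. Tox2 fell at its promoter, from 409 and 402 to 264 and 216 (log2 difference -0.76, SE 0.14, adjusted p = 5.7e-05), which held without any 1 library. Tox fell at 3 peaks by 0.35 to 0.61, Nr4a1, an early target of receptor signalling, at 2 and the checkpoint gene Ctla4 at 1. None of these 6 calls held in all 4 fits without a library, and the largest adjusted p among them was 0.51, at Ctla4 without Ttad replicate 1. The promoter of Cd244a, which encodes the receptor 2B4, rose by 1.05, from 42.6 and 35.9 to 74.7 and 90.2 (adjusted p = 0.0024, and 0.063 without Ttad replicate 2).

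Among called peaks of Dusp, Spry and Spred genes, listed here as brakes of ERK signalling, more rose than fell. Not every gene of the list acts mainly on ERK, as is said for Dusp10 below. Of 108 peaks at 13 genes, 15 rose (13.9%, at 7 genes) and 2 fell (1.85%), and the other 91 were not called. The median over all 108 was 0.10. Without 1 library, 6 to 9 rose. The targeted gene was the nearest one for 6 of the rises, among the 17 peaks given to it, and all 6 lie outside the gene. Of the same 17 peaks, 3 rose with the OTC guide and 6 with Zfp219. The most certain lies 5723 bases beyond Dusp5 (chr19:53547532-53548085) and went from 141 and 161 to 248 and 326, a rise of 0.91 (SE 0.18, adjusted p = 0.00025, held without any 1 library). The strongest lies 67133 bases away in another transcript's promoter (chr19:53460413-53462012) and rose by 0.30, from 1006 and 987 to 1239 and 1215 (adjusted p = 0.0071, and 0.068 without Tprog replicate 2). The promoter peak of Dusp5 itself (chr19:53528476-53530901) did not pass, with 942 and 1084 in Tprog against 864 and 918 in Ttad (log2 difference -0.18, adjusted p = 0.20).

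Among its relatives, a peak in Dusp14, another phosphatase of the family, went from 42.6 and 50.8 to 135 and 165 (log2 difference 1.66, SE 0.20, adjusted p = 4.4e-10). The states were wide apart there and the call held without any 1 library. Spred2, a Ras pathway inhibitor, had 3 rises, none held throughout. Dusp10, which acts mainly on p38 and JNK kinases, fell by 0.65 (357 and 338 against 217 and 224; adjusted p = 0.0045, and 0.069 without Tprog replicate 1), and Dusp4 fell by 0.32 (adjusted p = 0.026, and 0.17 without Tprog replicate 1).

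Among 77 peaks at 14 interferon response genes and interferon regulatory factors, 9 rose (11.7%) and 3 fell (3.90%), with a median of 0.06. The median was -0.002 under quantile normalization and -0.008 with edgeR. All but 1 of the rises were at the regulatory factors Irf8, Irf2 and Irf4. The only rise at a response gene was at Ifit3, and that call did not hold. Irf8 led this list with 4 rises among its 18 peaks. The site at chr8:120791265-120792238, 34571 bases from the gene, gave 173 and 177 in Tprog and 379.5 and 549.8 in Ttad, a rise of 1.38 (SE 0.16, adjusted p = 6.5e-10). A neighbouring site (chr8:120786659-120787377) rose by 1.48 (65.0 and 89.3 against 174 and 262; adjusted p = 1.3e-06), and both held without any 1 library. Irf4, a factor induced by receptor signalling, had 2 rises and 2 falls. Its promoter fell by 0.35 (1448 and 1324 against 1108 and 1058; adjusted p = 0.0026, and 0.11 without Tprog replicate 1).

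The remaining lists had shares closer to those of all peaks, 4.58% up and 2.75% down. Of 84 peaks at AP-1 genes, 2 rose and 2 fell, which is 2.38% in either direction. Of 144 peaks at residency and TGF beta genes, 7 rose (4.86%) and 5 fell (3.47%). Among these Tgfbr2, a receptor of TGF beta, had 2 rises, of 0.54 and 0.49. Smad3, which carries the TGF beta signal, had a peak inside the gene rise by 0.51 and its promoter fall by 0.47 (527 and 526 against 394 and 364; adjusted p = 0.0046), and none of these 4 calls held in all 4 fits without a library. Runx3, which maintains the cytotoxic CD8 programme, had 3 rises and 1 fall. The largest rise, inside the gene at chr4:135168417-135169906, was from 516 and 429 to 721 and 807 (log2 difference 0.70, SE 0.10, adjusted p = 9.1e-08) and held. The Runx3 fall was 0.39 (adjusted p = 0.039, and 0.45 without Tprog replicate 1). T cell identity genes had 10 rises (6.71%) and 6 falls (4.03%) among 149 peaks. A site near Lat, the adaptor below the T cell receptor, fell by 1.01 (379 and 373 against 196 and 177; adjusted p = 2.5e-05). This call held without any 1 library. The strongest Cd8b1 peak fell by 0.38 (1172 and 1134 against 923 and 844; adjusted p = 0.0011, and 0.056 without Ttad replicate 2). Receptors of NK cells had 1 rise (1.82%) and 2 falls (3.64%) among 55 peaks. Cell cycle and senescence genes had 3 rises (5.17%) and 1 fall (1.72%) among 58. Those rises were at Cdkn2b and Cdkn2c and the fall was at Top2a. Nfil3, a basic leucine zipper factor, fell by 1.18 at chr13:53009630-53011117 (232 and 213 against 104 and 91.9; adjusted p = 1.8e-05, held).

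**Figure D3:**
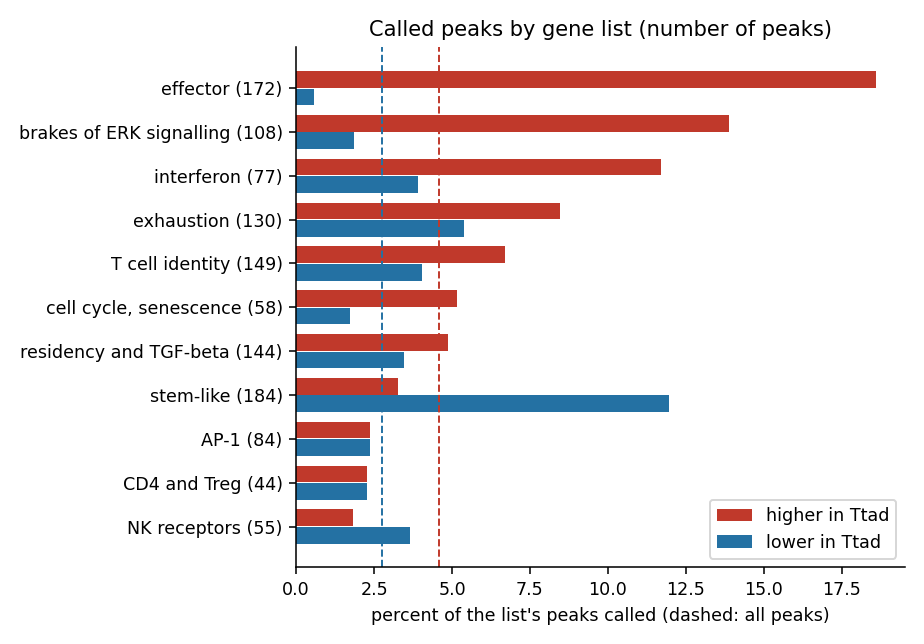
Percent of the peaks of each gene list (horizontal axis) that were called higher (red bars) or lower (blue bars) in Ttad, with the number of peaks in brackets and dashed lines at the shares of all peaks, 4.58% and 2.75%. Effector genes have the longest red bar, at 18.6%, and stem-like genes the longest blue bar, at 11.96%.

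Rises and falls lay at different places in the genome. RefSeq promoter windows, counted here from 250 bases before to 50 after a gene's start, were overlapped by 19.03% of all peaks. They were overlapped by 144 of the 2467 rises (5.84%) and by 359 of the 1482 falls (24.2%). With the OTC guide the pattern was the other way: 19.3% of rises and 6.45% of falls were at promoters. With the Zfp219 guide it was 16.6% and 5.86%. The median difference of promoter peaks was -0.05 with Dusp5, 0.05 with OTC and 0.07 with Zfp219. The share of all reads that fell in promoter peaks moved the same way. With the Dusp5 guide it was 42.6% and 42.9% in Tprog and 41.4% and 40.3% in Ttad. With the OTC guide it was 41.0% and 41.2% in Tprog and 41.8% and 41.7% in Ttad, so the state with the higher share differed by guide. The part that the share of reads in promoters plays in the calls was not tested. The promoter share of the falls also depended on the library, from 29.5% without Ttad replicate 1 to 14.3% without Ttad replicate 2.

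A few promoters, picked among the genes described above, are shown as single cases. They do not stand for all called windows, whose shares are given further below. The sequences are from RefSeq on GRCm38.p6, the assembly of mm10, 5′ to 3′ on the gene's strand, and give the 250 bases before the start. Capitals mark matches on either strand to any of 12 short motifs searched, among them AP-1 (TGANTCA), RUNX (TGTGGT), KLF (GGGTGTGG), ETS (GGAAGT) and NR4A (AAAGGTCA). The first 5 genes had promoter peaks that rose and Id3 is shown as one that fell. Havcr2 lies at chr11:46454681-46454930 (+), Cd244a at chr1:171558943-171559192 (+), Gzmd at chr14:56132594-56132843 (-), Gzme at chr14:56120626-56120875 (-), Gzmf at chr14:56211408-56211657 (-) and Id3 at chr4:136143572-136143821 (+).
Havcr2: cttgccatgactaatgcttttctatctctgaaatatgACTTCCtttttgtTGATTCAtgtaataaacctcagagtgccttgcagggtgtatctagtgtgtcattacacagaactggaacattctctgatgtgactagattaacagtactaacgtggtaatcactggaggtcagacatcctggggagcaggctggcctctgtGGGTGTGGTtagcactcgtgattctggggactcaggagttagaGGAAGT
Cd244a: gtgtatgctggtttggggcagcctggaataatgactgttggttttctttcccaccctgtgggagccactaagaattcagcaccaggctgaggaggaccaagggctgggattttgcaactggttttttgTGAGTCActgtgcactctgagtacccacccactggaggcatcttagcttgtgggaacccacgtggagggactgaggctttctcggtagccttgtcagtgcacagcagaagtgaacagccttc
Gzmd: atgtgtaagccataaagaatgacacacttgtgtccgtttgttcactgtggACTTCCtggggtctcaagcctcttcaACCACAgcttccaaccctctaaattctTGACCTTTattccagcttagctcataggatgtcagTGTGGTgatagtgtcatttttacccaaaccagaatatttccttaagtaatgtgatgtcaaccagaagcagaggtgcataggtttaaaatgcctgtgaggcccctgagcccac
Gzme: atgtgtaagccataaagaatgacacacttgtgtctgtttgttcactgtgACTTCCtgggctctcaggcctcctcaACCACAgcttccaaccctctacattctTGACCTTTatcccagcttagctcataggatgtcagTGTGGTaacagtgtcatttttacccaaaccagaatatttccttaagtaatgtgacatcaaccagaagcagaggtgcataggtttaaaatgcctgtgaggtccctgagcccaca
Gzmf: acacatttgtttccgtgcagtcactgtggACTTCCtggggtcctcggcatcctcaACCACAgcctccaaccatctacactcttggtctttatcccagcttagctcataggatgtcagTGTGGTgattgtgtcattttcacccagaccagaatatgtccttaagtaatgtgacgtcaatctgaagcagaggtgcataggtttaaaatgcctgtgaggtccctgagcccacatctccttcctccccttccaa
Id3: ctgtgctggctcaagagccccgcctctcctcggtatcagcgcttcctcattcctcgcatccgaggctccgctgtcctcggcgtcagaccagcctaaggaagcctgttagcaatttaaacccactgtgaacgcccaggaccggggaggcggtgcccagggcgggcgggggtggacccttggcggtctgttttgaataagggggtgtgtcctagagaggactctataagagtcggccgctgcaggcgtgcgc

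The Havcr2 window has an AP-1 match, 2 ETS matches and a KLF match that overlaps a RUNX match (GGGTGTGGT). The Cd244a window has a single AP-1 match. The 3 granzyme windows share the same arrangement, an ETS match, then 2 RUNX matches in opposite orientation, and Gzmd and Gzme have an NR4A match between the RUNX pair. The Id3 window has none of the 12 motifs, which says only that these letters are not in it. It is also richer in G and C, at 62.8%, than the other 5, at 44.4% to 53.2%.

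Over all promoters, the AP-1 motif was in 29 of 172 windows under rises (16.9%), in 14 of 491 under falls (2.85%), in 5.11% of the 13674 windows under any peak and in 7.81% of all 32851 windows. The RUNX motif was in 29.7%, 8.55%, 13% and 16.8% of these sets, in the same order. The KLF motif was in 9.88%, 3.05%, 3.85% and 3.56%, and the ETS motif in 30.2%, 25.1%, 28.2% and 23.8%. The NR4A motif was rare, in 1.16%, 1.63%, 0.921% and 1.51%. Both strands were searched, and matches of different motifs may overlap. Base composition moved with these shares: G and C made up 55.3% of the windows under rises (SD 8.99 between windows), 63.6% under falls (SD 9.67) and 61.4% under any peak. Its part in the motif shares was not tested.

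The largest changes were at weak peaks. By a rule on size, the 10 largest falls with a mean of at least 50 in the higher group were near or in Ipcef1, Tnni1, Mbnl2, Gypc, Inpp5d, Zfp148, Lonrf2, Acap2, Medag and Nf1, with log2 differences from -3.99 to -2.55. Those of Mbnl2, Gypc, Zfp148 and Acap2 were called in all 4 fits without a library and the other 6 were not. The Mbnl2 peak, in the gene of a splicing regulator, gave 63.9 and 54.3 in Tprog and 4.39 and 5.01 in Ttad (-3.39, SE 0.67, adjusted p = 0.00023). The Acap2 peak, in a gene of endosomal traffic, gave 65.0 and 62.2 against 11.7 and 6.68 (-2.71, SE 0.57, adjusted p = 0.00062).

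The 10 largest rises by the same rule were near or in 4931408C20Rik, Zfp978, Vmn1r48, Robo2, Sult2a3, Vmn2r91 and Ndst3 and at 3 sites with no protein-coding gene within 100 kb. Vmn1r48 and Vmn2r91 encode vomeronasal receptors of sensory neurons, Robo2 a receptor of axon guidance and Sult2a3 a sulfotransferase. The site at chr1:190300255-190303901 went from 28.0 and 20.1 to 208 and 294, a rise of 3.33 (SE 0.34, adjusted p = 9.7e-13). It held without any 1 library, as did 7 others of the 10, while 4931408C20Rik and Vmn2r91 did not (adjusted p = 0.17 without Tprog replicate 1 and 0.055 without Ttad replicate 2).

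Part of the largest rises tracked the share of reads on unplaced scaffolds. Over the 36 libraries that are neither aged Ttad nor aged Tprog, each centred on its host age and state, 142 peaks (0.264%) followed that share with a Pearson r of at least 0.7, given as a description. Among the 36 were the aged Dusp5 Tterm libraries, with the highest shares of the series, 2.23% and 2.22%. The other aged Tterm libraries had 0.878% to 0.918%. How far r rests on the Dusp5 Tterm libraries was not tested. Of the 2467 rises 99 were such peaks (4.01%), and of the 1482 falls 4 were. Among the 339 rises of at least 2 on the log2 scale, 46 were (13.6%). Of the 10 largest rises, 3 were: Ndst3 (r = 0.78) and the sites at chr1:190300255-190303901 (0.74) and chr1:101103876-101108340 (0.73). The other 7 had r from 0.35 to 0.68. The median difference of the 142 peaks was 1.75 with the Dusp5 guide, 0.06 with OTC and -0.63 with Zfp219. The unplaced share itself was higher in Ttad with Dusp5, was near level with OTC and was lower in Ttad with Zfp219. The part of the unplaced share in these rises was not tested. None of the 142 was among the called rises of any gene list above. Without them, 3789 peaks were called.

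**Figure D4:**
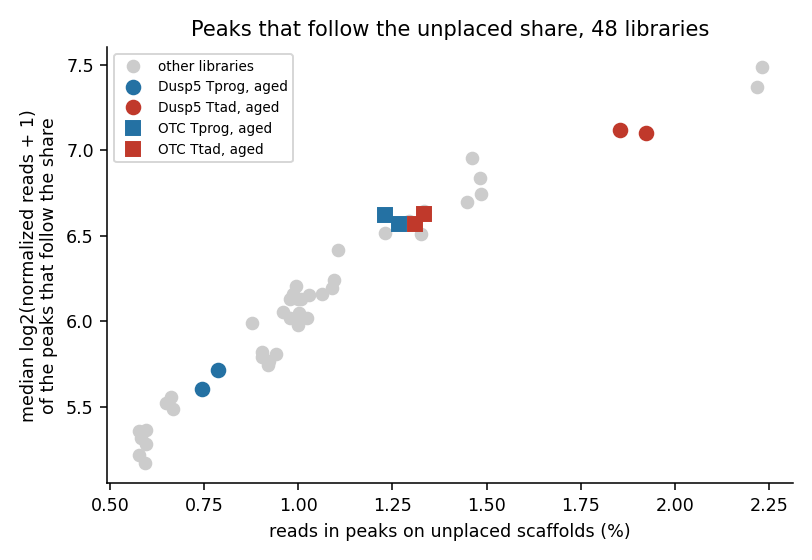
Median log2 signal over the 142 peaks (vertical axis) against the percent of reads on unplaced scaffolds (horizontal axis), 1 point per library, with aged Tprog (blue) and Ttad (red) libraries of the Dusp5 (circles) and OTC (squares) guides in colour and all other libraries grey. The 2 Dusp5 Tprog libraries lie at 0.788% and 0.745% and the 2 Dusp5 Ttad libraries at 1.85% and 1.92%.

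Large rises with little relation to that share (r under 0.2, chosen after the values were seen) were at Fbxo31, Sytl2, Lasp1, Gm33049 and Klhl30. Fbxo31, a subunit of a ubiquitin ligase, gave 16.8 and 6.13 in Tprog and 60.1 and 83.6 in Ttad (log2 difference 2.67, SE 0.32, adjusted p = 8.1e-10). Sytl2, which acts in granule secretion, gave 13.5 and 12.3 against 90.8 and 76.9 (2.61, SE 0.34, adjusted p = 9e-09). The other 3 rose by 2.25 to 2.53, and all 5 held without any 1 library. Among the genes with most called rises were Filip1, with 8 of its 24 peaks, by 0.33 to 1.62, and Auh, Chd7, Entpd1 and Ifng, with 7 each. The falls were led by Gm40363, a predicted gene, with 6 of 8 peaks, and by Ets1, a factor of T cell development, with 5 of 30, by 0.32 to 0.91. The strongest Ets1 change named here (chr9:32660250-32662488) was from 996 and 1074 to 744 and 692 (-0.53, SE 0.10, adjusted p = 0.00013, held).

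Where Ttad stands between the other states was read from peaks chosen in other libraries. In young hosts with the Dusp5 guide, 3082 peaks were at least 2-fold more open in Tterm than in Tprog (percent called 5.72) and 4061 at least 2-fold less open (percent called 7.54). Of the 3082 sites open in terminal cells, 614 rose from Tprog to Ttad in aged hosts (19.9%) and 8 fell, with a median of 0.57. Of the 4061 sites open in progenitor cells, 477 fell (11.7%) and 121 rose, with a median of -0.38. Among the 37804 peaks not called in young cells, 920 rose (2.43%) and 587 fell (1.55%), against 4.58% and 2.75% of all peaks. Of the 121 rises against the direction, 58 were among the 142 peaks that followed the unplaced share. Without 1 library, between 367 and 464 of the terminal sites rose and between 196 and 314 of the progenitor sites fell.

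The mean log2 signal of terminal sites minus that of progenitor sites gives each library a position. It was -1.45 in both Tprog libraries and -0.48 and -0.50 in Ttad, against -0.02 and -0.03 in Ttran and 0.51 and 0.56 in Tterm. No 2 states overlapped, and Ttad lay nearest to Ttran. With OTC the Tprog libraries were at -1.48 and -1.45 and the Ttad libraries at -0.49 and -0.48. With Zfp219 the Tprog libraries were at -1.36 and -1.33 and the Ttad libraries at -0.08 and -0.05, above both other guides.

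**Figure D5:**
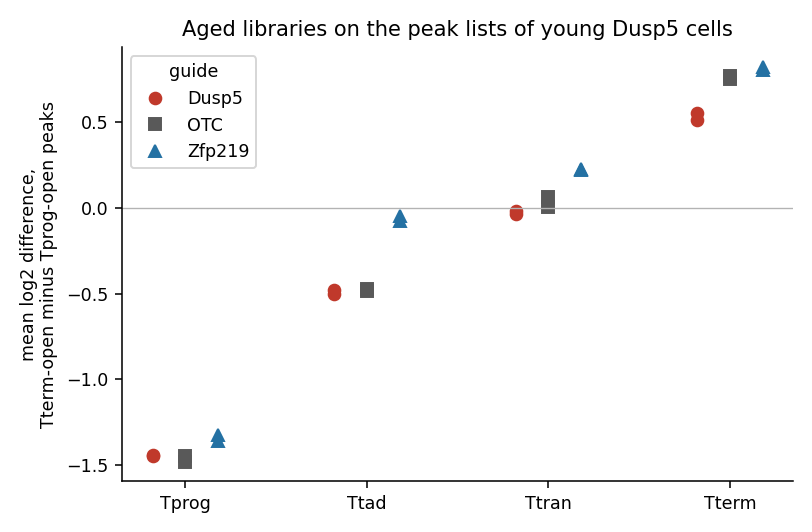
Position of each aged library between progenitor and terminal sites (mean log2 signal of the 3082 terminal sites minus the mean of the 4061 progenitor sites), by guide and state, 1 point per library. With the Dusp5 guide the states run Tprog, Ttad, Ttran, Tterm from low to high without overlap.

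Peak by peak, the Ttad mean lay between those of Tprog and Tterm at 72.3% of the rises and 46.5% of the falls, against 48.2% of all peaks. At 207 of the 2467 rises (8.39%, against 4.496% of all peaks) both Ttad libraries were above every other aged Dusp5 library. At 296 of the 1482 falls (19.97%, against 3.43% of all peaks) both were below every other one. The Ttad libraries take part in the choice of these called peaks, so the shares are a description.

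The same state difference was called at 2058 rises and 1473 falls with the OTC guide (percent called 3.82 and 2.73) and at 2344 rises and 1775 falls with Zfp219 (percent called 4.35 and 3.3). No library is shared with the Dusp5 comparison. Of the rises, 744 were common to Dusp5 and OTC, which is 30.2% of the Dusp5 and 36.2% of the OTC rises. Of the falls, 399 were common, 26.9% and 27.1%. At 5 peaks the Dusp5 rise was an OTC fall and at 5 the reverse. At the peaks called with Dusp5, the sign with OTC was the same for 87.2% of rises and 82.3% of falls. With Zfp219, 774 rises (31.4% and 33.0%) and 395 falls (26.7% and 22.3%) were common. In all 3 guides 451 rises and 252 falls were called.

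The marker sites given next, picked from the genes described above, changed in the same direction with the control guide. At the largest Tcf7 fall the OTC difference was -1.25, at Ccr7 -1.26 and at the Id3 promoter -1.03. At Ccl3 it was 0.93, at the Havcr2 promoter 0.66 and at the Entpd1 promoter 0.45. For Entpd1, which rose by 1.02 with Dusp5, the difference between guides was not called, and of all 184 stem-like and 172 effector peaks none was. Counts of called peaks did not match at every gene. Bach2 had 3 falls and 1 rise with Dusp5, but 3 rises and no fall with OTC. Tox had 3 falls with Dusp5 and 1 rise with OTC. Over the exhaustion list 11 rose and 7 fell with Dusp5, and 15 rose and 3 fell with OTC. Over the stem-like list the counts were 6 and 22 with Dusp5, and 6 and 18 with OTC.

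The test of the difference between guides called 116 peaks where the change from Tprog to Ttad was higher with Dusp5 than with OTC (percent called 0.215) and 56 where it was lower (percent called 0.104). Of the 116, 46 were among the 142 peaks that followed the unplaced share (39.7%), and of the 56 none was. When those 142 and no others were left out, 35 higher and 25 lower were called. Against Zfp219 there were 330 higher (percent called 0.613) and 396 lower (percent called 0.735), and 93 of the 330 followed the share (28.2%). The count against OTC rests on single libraries, from 72 without OTC Tprog replicate 1 to 344 without OTC Ttad replicate 2. It was 88 without Dusp5 Ttad replicate 2, 92 without Dusp5 Tprog replicate 1 and 102 without OTC Tprog replicate 2.

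The widest departure from OTC was inside Thy1, a surface protein of T cells, at chr9:44046603-44047436. With the Dusp5 guide reads were 177 and 222 in Tprog and 208 and 172 in Ttad, so the states overlapped. With OTC they were 135 and 122 in Tprog and 4884 and 4611 in Ttad, and with Zfp219 190.5 and 219 in Tprog and 567 and 668 in Ttad. The difference between the Dusp5 and OTC changes was -5.27 (SE 0.20, adjusted p = 3.7e-40) and was called under every alternative tried. Of the other 13 peaks given to Thy1 none was called in that test. Whether the reads of the OTC Ttad libraries at this site come from the Thy1 gene of the cells was not tested.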

How the data were processed

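ATAC-seq was run on transferred CD8 T cells from mouse tumours. The deposited table gives a signal for each of 53868 peaks in 48 libraries, which the authors made from reads in peaks, per the file headers. In each library the values are whole multiples of 1 step, the inverse of a size factor. Whole reads were recovered for 100% of values, to a tolerance of 0.001 reads. The submitters' processing notes name mm10 and the tools Bowtie2 2.2.9, Picard 2.8.0, SAMtools 1.3.1, MACS2 2.1.1 and DESeq2 1.28.1, without their order. How peaks were merged, and whether they were called on pooled libraries, is not given in the sources used here.

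Sample titles gave each library's group and replicate number, with A and Y read as aged and young. The signal was tested with limma 3.58.1 (R 4.3.3, lmFit and eBayes with trend) on log2(value + 1), with a mean for each of the 21 groups, all 48 libraries in 1 fit (27 residual and 66.71 prior degrees of freedom) and Benjamini-Hochberg adjustment over all peaks. The pseudocount shrinks the changes of weak peaks. The edgeR 4.0.16 quasi-likelihood test on recovered reads, for 47 libraries, was an alternative. On simulated reads for 53868 peaks with 200 changed 2-fold, limma recovered 62% of them in the Dusp5 comparison with 50 false calls, and edgeR 61% with 15. For the difference between the Dusp5 and OTC comparisons limma recovered 44.5% with 24 false calls, and edgeR 42.5% with 21. In each of these, false calls were a larger part of all calls than the 0.05 set as threshold. The simulated spread was a fixed multiple of counting noise and not that of these data. The rate of false calls in these data was therefore not measured.

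Named peaks were the 10 largest rises and falls among called peaks whose groups did not overlap and whose higher mean was at least 50, the largest called rise and fall of each gene list, the strongest peak of the sorting and described genes, all called peaks of genes described by role, the genes with most called peaks and the 5 largest rises and falls of the difference between guides. The comparison, gene lists and tests were chosen with earlier results of these data known. Depth sets precision through the read counts per peak, and no genome sequence was used, so motifs were searched in RefSeq promoter windows alone. The alternatives were quantile normalization, dropping the weakest 25% of peaks, a pseudocount of 8, fits on the compared groups or on 1 host age, a replicate block, edgeR, each library left out in turn and, chosen after seeing the data, removal of peaks that follow the unplaced share. A few items are not reported here.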

Additional observations from a re-analysis of the deposited data

Results flagged for a closer look

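The change from Tprog to Ttad differed between guides, by the limma test of that difference, at 172 peaks between Dusp5 and OTC and at 726 between Dusp5 and Zfp219. Among the 5 largest higher changes with Dusp5, the log2 difference between guides was 4.401 at 4931408C20Rik (adjusted p = 0.035), 3.70 at Vmn1r48 (0.028), 3.27 at Sult2a3 (0.026), 3.24 at Spata1 (0.035) and 3.19 at the site on chromosome 1 that starts at 190300255 and has no gene within 100 kb (5.4e-06). Normalized reads at that site were 28.0 and 20.1 in Tprog and 208 and 294 in Ttad with Dusp5, and 123 and 114 in Tprog and 106 and 160 in Ttad with OTC. At Spata1, a sperm gene, they were 22.4 and 15.8 against 92.3 and 51.8 with Dusp5 and 37.4 and 39.0 against 16.8 and 11.1 with OTC.

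Among the 5 largest lower changes the difference was -5.27 at Thy1 (adjusted p = 3.7e-40), -1.71 at Cdc27 (0.05), -1.59 at Gtf2ird2 (0.04), -1.56 at Serpinb1c (0.019) and -1.36 at Pfkfb3 (0.041). The peak in Pfkfb3, a regulator of glycolysis, gave 166 and 172 in Tprog and 73.3 and 124 in Ttad with Dusp5, and 108 and 145.5 in Tprog and 186 and 179 in Ttad with OTC. Of these 10 differences, those at Thy1 and at the chromosome 1 site stayed called under every alternative run for them. The chromosome 1 site is among the 142 peaks that follow the unplaced share (r = 0.74), so removal of those peaks gives it no value. The other 8 lost the call when at least 1 library was left out.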

How the results depend on the processing

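The Dusp5 count of 3949 peaks ranged from 3565 to 4245 under quantile normalization, dropping the weakest 25% of peaks, a pseudocount of 8, libraries of the same host age, the replicate block, edgeR and removal of peaks that follow the unplaced share. A fit of the compared groups alone called 2313, and fits without 1 library 1781 to 2941. Without 1 library, OTC gave 1445 to 2715 peaks, Zfp219 1826 to 2533 and young Dusp5 11236 to 13818. The Dusp5 against OTC difference (172 peaks) gave 105 under quantile normalization, 62 in the compared groups alone, 60 without the following peaks and 72 to 344 without 1 library. Against Zfp219 (726) it gave 234 to 774 without 1 library. The cause of these moves was not tested. No named result reversed its sign. The edgeR count was 3748 for Dusp5 and 126 for the difference from OTC, against 3949 and 172 by limma.

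Over all peaks, the correlation of the deviations of same-numbered Ttad and Tprog libraries was -0.01 with Dusp5. Counting noise of weak peaks enters this value, so it cannot show whether the states came from the same mice. With the replicate block 3834 peaks were called for Dusp5 and 146 for the difference from OTC. With 2 libraries per state, 62% of simulated 2-fold changes were recovered for Dusp5, so a peak that was not called may still differ. False calls there exceeded the share set by the threshold, so a called peak may also be a false one.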
